A study of Mus musculus with 84 samples.

Results

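The cells described here are the P cells, 59 of the 84 single neurons of the series, chosen by the letter P in their sample titles. The titles do not spell the letter out. Since pyramidal neurons are named in the title of the series, beside fast-spiking ones, the P cells are taken here as the pyramidal neurons of the prefrontal cortex. All P cells came from untreated mice of strain C57/BL6/N, as acute slices of cortex from which single neurons were collected with a patch-clamp pipette. Their polyA RNA was amplified as aRNA, an amplification by in vitro transcription, and made into stranded libraries. The age, sex, genotype beyond the strain, cortical layer and animal of a cell are not given in the labels. Because no animal is named, the P cells are 1 sample, and what follows is a description of these cells with no test.

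Pyramidal neurons are the excitatory principal cells of the cortex. They package glutamate into synaptic vesicles, receive excitatory input on dendritic spines through AMPA and NMDA receptors, and receive inhibition through GABA receptors. Voltage-gated sodium, potassium and calcium channels and the hyperpolarization-activated HCN channels set how they integrate input and fire. Cells of upper layers project mainly within the cortex, and many cells of deep layers project to targets below it.

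Libraries differed widely in depth. The total was between 19802 and 16251918 counts per cell, with a median of 2706396. The number of genes with a count ran from 498 to 9680, with a median of 3488, and followed the total across cells (Spearman's rho 0.735, n = 59). The ribosomal RNA gene Rn45s took 0.0441% to 78.5% of a cell's counts (median 1.14%) and exceeded 20% in 5 cells. The 6 cells whose labels name bcl2fastq 1.8.4 had a median of 3546 genes at equal depth, and the 47 whose labels name bcl2fastq2 had 1756. To compare cells at equal depth, each library was thinned at random to 139788 counts, which kept 53 cells. The 6 cells with smaller totals, P35, P43, P45, P56, P58 and P60, were left out of counts at equal depth. A gene is called found in a cell when it had at least 1 count there, and CPM is a gene's counts divided by the cell's total and multiplied by 1000000. At equal depth, 1 count is 7.15 CPM and the median cell had 1790 genes, with quartiles of 1279 and 2434. Intervals are exact Clopper-Pearson 95% intervals for a share of cells. They cover the draw of cells only, and amplified reads that carry no molecular identifier cannot count as independent molecules. CPM is not corrected for gene length, so levels are not compared between genes.

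**Figure D1:**
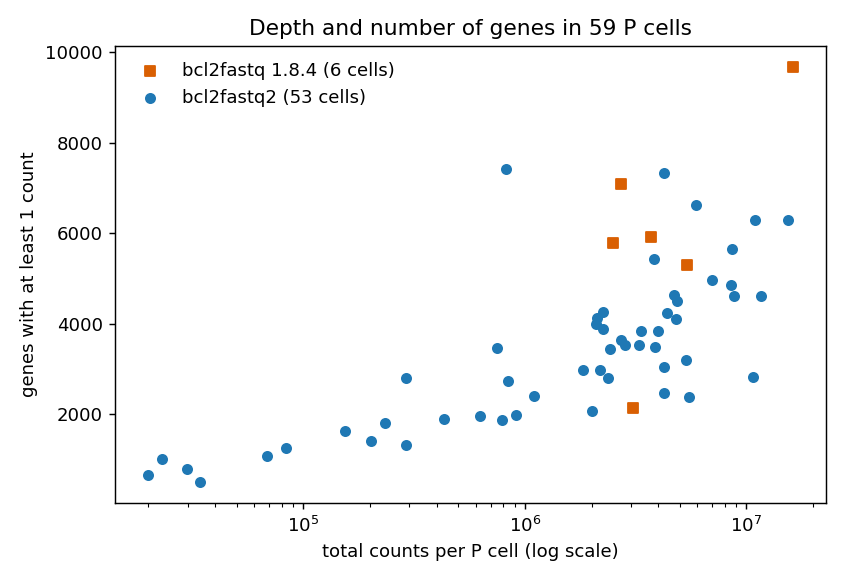
Genes with at least 1 count per P cell against the cell's total counts (log axis), by bcl2fastq version of the labels. The number of genes rose with the total, from 498 to 9680 over the 59 cells.

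The label was checked against markers first. Of the 59 cells, 51 (86.4%, interval 75% to 94%) had more of 13 glutamatergic than of 20 GABAergic marker genes at 10 CPM or more. The 13 genes include the 5 markers named below. Among the 51, P14 had 1 such glutamatergic gene against 0 GABAergic ones, and P43 and P58 had 2 against 1 each. In libraries under 100000 counts, such as P43 and P58, 1 count is already over 10 CPM. In 3 cells, P3, P57 and P67, more GABAergic markers reached that level, and in 5 cells, P27, P35, P45, P56 and P75, the numbers were equal. P67 went against its label most clearly. It had 4752 CPM of Gad1 and 931 CPM of Gad2, the enzymes of GABA synthesis, 629 CPM of Slc32a1, the vesicular GABA transporter, and no count of Slc17a7 or Camk2a. P3 held both kinds of marker, with 493 CPM of Gad2 and 68 CPM of the peptide gene Sst beside 569 CPM of Arpp21 and 402 CPM of Neurod2. P57, with 234555 counts, had 0 counts of Gad1, Gad2, Slc17a7 and Arpp21. Its place rested on 2 GABAergic genes against 1 glutamatergic gene at that level. By summed level its glutamatergic genes were higher, at 1296 CPM against 46.9 CPM of GABAergic genes, and it had 175 counts of Baiap2 at equal depth. None of the 5 markers named below was found in P14, P27, P35, P43, P56 or P58. Of these, P14 had 40063 CPM of Rprm and 12631 CPM of Cx3cr1, the fractalkine receptor of microglia, while P27 had 91515 CPM of Slc1a2, the astrocytic glutamate transporter. P56, with 29966 counts, had 99980 CPM of Aldoc, an astrocytic glycolytic enzyme. Leaving out P3, P57 and P67 kept 50 thinned cells.

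The markers used for the P cells were 5 genes: Slc17a7, the vesicular glutamate transporter VGLUT1; Baiap2, the postsynaptic scaffold IRSp53; Arpp21, a cyclic AMP-regulated phosphoprotein of forebrain neurons; Sv2b, a synaptic vesicle glycoprotein; and Neurod6, a bHLH transcription factor of excitatory cortical neurons. In mm10 with GENCODE M21 genes, Slc17a7 (ENSMUSG00000070570.5) lies on the forward strand at chr7:45163949-45176142. Sv2b (ENSMUSG00000053025.13) lies on the reverse strand of the same chromosome at chr7:75114894-75309262. Baiap2 (ENSMUSG00000025372.16) is at chr11:119942763-120006782 on the forward strand. Arpp21 (ENSMUSG00000032503.18) is at chr9:112065091-112235938 and Neurod6 (ENSMUSG00000037984.9) at chr6:55677822-55681263, both on the reverse strand. All 5 are protein-coding genes. The first exon of Sv2b is overlapped by a noncoding gene on the opposite strand, and without the strand setting of the counting their reads cannot be told apart.

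The 250 bases before the start of Slc17a7, Sv2b and Neurod6 are shown as the promoter regions of 3 of the 5 markers, and 11 of 53 cells had all 3 genes at equal depth. They are RefSeq sequences of GRCm38.p6, 5′ to 3′ on the strand of the gene, at chr7:45163671-45163920, chr7:75309263-75309512 (the most upstream of 4 starts in the table) and chr6:55681264-55681513. Capitals mark 3 forms of the E-box, the hexamers bound by bHLH factors, searched on both strands. Other forms of the E-box were not searched and are left in small letters where they occur. The first hexamer searched, CAGATG, is the form known for neurogenic bHLH factors. Another, CAGCTG, reads the same on the opposite strand. The third hexamer in the search was CAGGTG, and none of these forms overlaps another in the windows shown.
Slc17a7: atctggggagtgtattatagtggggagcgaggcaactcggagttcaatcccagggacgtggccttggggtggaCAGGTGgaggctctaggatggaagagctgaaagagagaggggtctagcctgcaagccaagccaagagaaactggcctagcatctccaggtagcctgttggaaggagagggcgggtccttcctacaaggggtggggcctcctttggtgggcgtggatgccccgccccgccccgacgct
Sv2b: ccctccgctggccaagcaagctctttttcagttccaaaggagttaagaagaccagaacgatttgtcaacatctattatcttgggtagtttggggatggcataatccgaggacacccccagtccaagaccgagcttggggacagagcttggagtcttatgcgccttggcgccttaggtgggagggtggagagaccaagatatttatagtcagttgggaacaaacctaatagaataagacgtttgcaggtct
Neurod6: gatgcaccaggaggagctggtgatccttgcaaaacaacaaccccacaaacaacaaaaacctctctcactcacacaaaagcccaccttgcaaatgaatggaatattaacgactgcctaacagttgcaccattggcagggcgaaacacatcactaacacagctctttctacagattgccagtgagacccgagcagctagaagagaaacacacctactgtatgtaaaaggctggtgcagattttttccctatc
The Slc17a7 window held 1 match, CAGGTG at position 74, and the others held 0 of the 3 hexamers searched. Of all 32851 promoter windows of this length, 38.1% held at least one of the 3 hexamers, and 17.2% held CAGGTG on either strand. A match describes the letters only.

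The microRNA gene Mir128-2 lies inside Arpp21 on the same strand, at chr9:112118636-112118711, and overlaps no Arpp21 exon. Its mature product is shown because an intron of the most widely found P cell marker carries it. The microRNA is not in the count table and was not measured here. The RefSeq sequence follows with its seed, bases 2 to 8, in capitals.
mmu-miR-128-3p: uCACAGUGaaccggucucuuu

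Arpp21 was the most widely found of the 5 markers, in 48 of 59 cells and in 43 of 53 at equal depth (81.1%, interval 68% to 90.6%). Its level ran from 0 to 7475 CPM, in P66, with a median of 374 CPM, and 37 cells had 100 CPM or more. Baiap2 was found in 46 of 59 cells and in 35 of 53, with a median of 14.2 CPM, 20 cells at 100 CPM or more, and the highest level, 7243 CPM, in the shallow library P45. Both genes were thus found in most P cells.

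Slc17a7 was found in 40 of 59 cells and in 34 of 53 at equal depth (64.2%, interval 49.8% to 76.9%). Its median was 16.2 CPM and its highest value 2813 CPM, in P75, followed by 2649 CPM in P59. The gene reached 100 CPM in 18 cells, so that most P cells had either none of this transporter's RNA counted or a low level of it. Sv2b was found in 32 cells, 27 of 53 at equal depth, with a median of 0.83 CPM, but 20 cells reached 100 CPM and the highest, P63, had 1105 CPM. Neurod6 was found in 23 cells, 17 of 53 at equal depth (32.1%, interval 19.9% to 46.3%). Its median was 0 CPM, and 10 cells reached 100 CPM, led by P62 with 6760 CPM, P44 with 3907 CPM and P36 with 2215 CPM. P62 alone held 42.5% of the summed Neurod6 CPM.

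**Figure D2:**
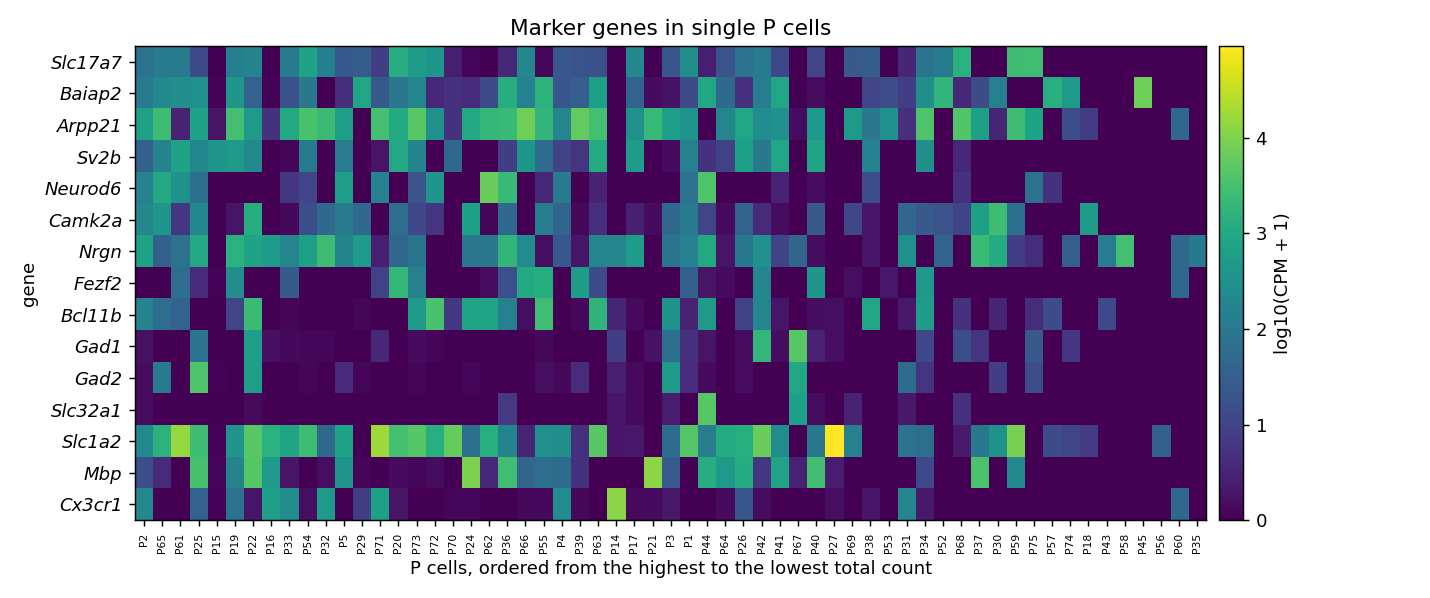
Level of 15 marker genes (rows) in each of the 59 P cells (columns, from the highest to the lowest total count), as log10(CPM + 1) in colour. The first 5 rows are the P cell markers, of which Arpp21 reached 100 CPM in the most cells (37) and Neurod6 in the fewest (10).

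A median of 3 of the 5 markers was found per cell at equal depth. All 5 were found in 9 cells, 4 in 13, 3 in 10, 2 in 11, 1 in 7 and none in 3. The 4 markers other than Neurod6 formed the most frequent combination, in 10 cells. At full depth the median was 4 markers, with all 5 in 18 cells and none in 6.

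The broader list of 13 glutamatergic genes includes the 5 markers, which are not independent of it. Of its members, 7 were found in at least 50% of cells at equal depth, against 525 of 18766 (2.80%) for all genes with a count in any P cell. Of these 7, Arpp21, Baiap2, Slc17a7 and Sv2b are markers already described, and 3 of the 8 other members passed the mark, namely Nrgn, the calmodulin-binding postsynaptic protein neurogranin (35 of 53 cells), Camk2a, a subunit of the calmodulin-dependent kinase (29 cells), and Neurod2, another bHLH factor (28 cells). Slc17a6, the VGLUT2 transporter, was found in 8 cells and Emx1, a homeobox factor of the dorsal forebrain, in 2.

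The genes found in the most P cells at equal depth included noncoding RNAs, RNA-binding proteins, cytoskeletal genes and calmodulin. Meg3, a maternally expressed noncoding RNA at chr12:109541001-109571726, was found in 51 of 53 cells, with a median of 9377 CPM, quartiles of 2124 and 22720 CPM, and the highest value, 107633 CPM, in P67. Malat1, a nuclear noncoding RNA, followed in 50 cells, with a median of 3473 CPM. Ndrg4, a brain protein of the NDRG family, was found in 49 cells. The host gene Snhg11, listed as protein-coding in GENCODE M21, was found in 48 cells. So were the actin-binding thymosin Tmsb4x, the prohormone-processing enzyme Cpe, the calmodulin gene Calm2 and the ubiquitin ligase Ttc3. In 47 cells were the ferritin heavy chain Fth1, the RNA-binding protein Celf4, the microtubule-associated kinase Dclk1 and the actin gene Actb. The AMPA receptor subunit Gria2 was the only neurotransmitter receptor among the first 20, in 46 cells, with Tuba1a and Rtn1. Celf2, another RNA-binding protein, Kcnq1ot1, a noncoding RNA antisense to Kcnq1, the membrane protein Gpm6a and the ribosomal protein gene Rplp1 were also among the first 20, in 44 or 45 cells. Reads of Calm2, Tuba1a, Fth1, Actb, Tmsb4x and Rplp1 can be split with near-identical copies or pseudogenes.

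Most genes were found in few cells. At equal depth, 14264 genes had a count in some P cell, 2417 in at least 25% of the cells, 525 in at least 50%, 67 in at least 75% and 9 in at least 90%, while Rn45s alone was found in all. In exactly 1 cell were 3011 genes. At full depth, 1495 genes were found in at least 50% of the 59 cells and 23 in at least 90%.

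Levels of even the widely found genes varied strongly from cell to cell. Over the 525 genes found in at least 50% of cells, the coefficient of variation (CV, the SD over the mean of CPM at equal depth) had a median of 2.19, with quartiles of 1.85 and 2.63. Counting of reads alone, with each read taken as independent, would give these genes a median CV of 0.131. Amplified reads are not independent molecules, so 0.131 does not cover capture and amplification. Their part in the CV was not tested. The single highest cell held a median of 22.2% of a gene's summed CPM over the 59 cells, and over 50% for 31 of the 525 genes. Each of the 59 cells was the highest for at least 1 of them, P21 for 24, P31 for 18 and P14 for 17.

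The steadiest genes were of several kinds. Ndrg4 had the lowest CV, 1.07, with a median of 1561 CPM and a highest value of 16928 CPM, in the shallow library P58. Celf4, a neuronal splicing and stability factor, had a CV of 1.12 with a median of 1024 CPM, and it was highest at 8728 CPM. Meg3 had a CV of 1.16. Atp1b1, a sodium pump subunit, followed at 1.23, the calmodulin gene Calm2 at 1.24, Gria2 and the ubiquitin gene Ubb at 1.30, the protein kinase A subunit Prkar1a at 1.32 and the ubiquitin ligase Mycbp2 at 1.33.

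The least steady genes were dominated by 1 cell each. Grin2b, the NMDA receptor subunit GluN2B, had a CV of 4.98, a median of 19.1 CPM and 31334 CPM in P30, 67.7% of the sum, so that 1 library set its mean. At the same end were Ahdc1 (CV 5.69, highest in P21), Ttc14 (5.17, P30), the ribosomal fusion gene Rps27a (5.11, P74), the nucleoside diphosphate kinase Nme1 (4.98, P14), the sodium-calcium exchanger Slc8a1 (4.86, P27), Ndrg2, known from astrocytes (4.78, P18, 108143 CPM), the neuronal kinesin Kif5c (4.75, P14, 50997 CPM) and the vesicle GTPase Rab10 (4.68, P30). P14 and P30 were thus the highest cell for 5 of the genes named here.

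**Figure D3:**
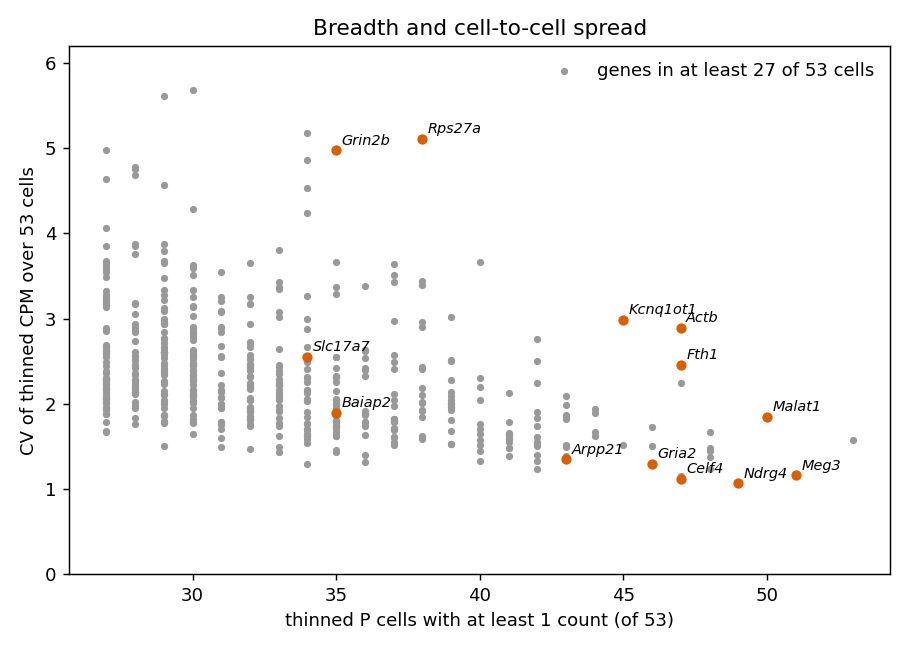
Coefficient of variation of each gene found in at least 50% of thinned P cells (27 of 53 or more), against the number of cells in which it was found. Labelled genes are in orange, Ndrg4 at 1.07 is lowest, and Rps27a (5.11) and Grin2b (4.98) are the highest of the labelled ones.

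Synaptic and calcium-signalling genes were among the widely found lists. Of 19 pan-neuronal genes, 10 were found in at least 50% of cells, a mark that 2.80% of all genes passed. Snap25, a SNARE protein of vesicle fusion, led them after Meg3 (44 of 53 cells, median 540 CPM). Syt1, the calcium sensor of release, came next (40 cells, median 70.7 CPM). Of 11 calmodulin signalling genes, 8 passed that mark, among them the calcineurin subunit Ppp3ca (42 cells) and the kinase subunit Camk2b (39 cells). Of 15 postsynaptic scaffold genes in the table, 4 passed it, namely Dlgap1 (38 cells), Baiap2, Dlgap4 (32 cells) and Homer1 (30 cells). Shank2 was found in 4 cells at full depth and in 0 of 53 at equal depth, which allows a share of up to 6.72%.

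Most neurotransmitter receptor genes were found in few cells, and those found in most cells were mainly glutamate receptors. Of 97 receptor genes, 7 (7.22%) were found in at least 50% of cells and 18 (18.6%) in at least 25%, against 2.80% and 12.9% of all genes. The median receptor gene was found in 3 cells, the same as the median of all genes, and 22 were found in none. A cell held between 1 (P32) and 33 (P1) of the 97, with a median of 12, and this number followed the number of genes in the cell (Spearman's rho 0.869, n = 53, both from the same library).

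Among the AMPA receptor subunits, which carry fast excitation, Gria2 was found in 46 of 53 cells (86.8%, interval 74.7% to 94.5%). Its level had quartiles of 70.9 and 3314 CPM around a median of 1283 CPM, and P38 had 16905 CPM. Gria1 and Gria3 were found in 35 cells each, with medians of 102 and 45.8 CPM, and Gria4 in 18. The combination Gria1, Gria2 and Gria3 was found in 14 cells, all 4 subunits in another 14, Gria2 with Gria3 in 6 and no subunit in 4. At equal depth all 35 cells with Gria3 also had Gria2, and at full depth 44 of 45 did.

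The NMDA receptor needs the subunit encoded by Grin1 together with a partner. Grin2b was found in 35 of 53 cells and Grin1 in 16 (30.2%, interval 18.3% to 44.3%), with 264 CPM of Grin1 at most. Grin2b without any other NMDA subunit was the most frequent state, in 19 cells, followed by no subunit in 11 and Grin1 with Grin2b alone in 8. Grin2a, whose product joins many mature receptors, was found in 3 cells. The partner was thus counted more often than the obligatory subunit at this depth. At full depth Grin1 was found in 36 of 59 cells, 25 of them under 10 CPM, and Grin2b in 43.

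Grm5, the metabotropic receptor mGluR5, was found in 37 of 53 cells, from 0 to 6697 CPM with a median of 36 CPM. No other metabotropic glutamate receptor passed 25% of cells, the next being Grm7 with 11. The kainate receptor subunit Grik2 was found in 20 cells.

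For inhibition, the GABA-A receptor subunit Gabrb2 was found in 21 of 53 cells, Gabra4 in 18 and Gabra5 in 12. The GABA-B receptor works as a pair of 2 proteins. Gabbr1 was found in 34 cells and Gabbr2 in 4, and 3 cells had both. At full depth these numbers were 39, 14 and 11 of 59.

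Each single receptor gene for a modulator was found in a minority of cells. As groups they were wider: 7 of 53 cells had no peptide, cannabinoid or adenosine receptor gene. No monoamine receptor gene was found in 21 cells, and no acetylcholine receptor gene in 36. The adenosine receptor Adora1 and the cannabinoid receptor Cnr1 were found in 22 of 53 cells each and the cholecystokinin receptor Cckbr in 16. A single cell, P18, held 63.8% of the summed Adora1 CPM, at 31252 CPM. Cckbr reached 3405 CPM in P29, 2334 CPM in P24 and 2131 CPM in P71 while its median was 0. Of 26 monoamine receptors in the table none was found in 25% of cells, Hrh3 (12 cells) and Adrb1 (10 cells) being the most frequent, and of 11 acetylcholine receptors the muscarinic Chrm1 (8 cells) was. The serotonin receptor Htr2a was found in 1 cell at full depth and in 0 of 53 at equal depth.

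The median ion channel gene was found in 7 of 53 cells. Of 93 channel genes, 7 (7.53%) were found in at least 50% of cells and 24 (25.8%) in at least 25%, against 2.80% and 12.9% of all genes, and 9 were found in none. A cell held between 2 (P27) and 43 (P2), with a median of 15, and this too followed the number of genes (Spearman's rho 0.830, n = 53).

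The sodium channels that carry the action potential led the channel genes. Scn8a, Nav1.6, was found in 38 of 53 cells (71.7%, interval 57.7% to 83.2%), with a median of 30.6 CPM and a highest value of 2956 CPM in P40. Scn2a1, Nav1.2, was found in 35, with a median of 17.5 CPM and a CV of 1.43. Scn3a was found in 23 cells and Scn1a in 22.

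Among calcium channels, the accessory subunit Cacnb4 was found in 30 cells, the P/Q-type pore Cacna1a in 29 and Cacna2d1 in 25. The low-threshold T-type pore Cacna1g was found in 21. Of voltage-gated potassium channels, the Kv1.2 gene Kcna2 was found in 29 cells. The large-conductance calcium-activated channel Kcnma1 was found in 21 cells and the small-conductance Kcnn2 in 19, and no inward rectifier or two-pore channel reached 25% of cells, Kcnj4 with 12 being the most frequent.

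Detection of the HCN channel gene Hcn2 depended on depth. It was found in 13 of 53 cells but in 42 of 59, since 31 of those 42 had under 10 CPM. Hcn4 was found in 0 of 53 cells.

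**Figure D4:**
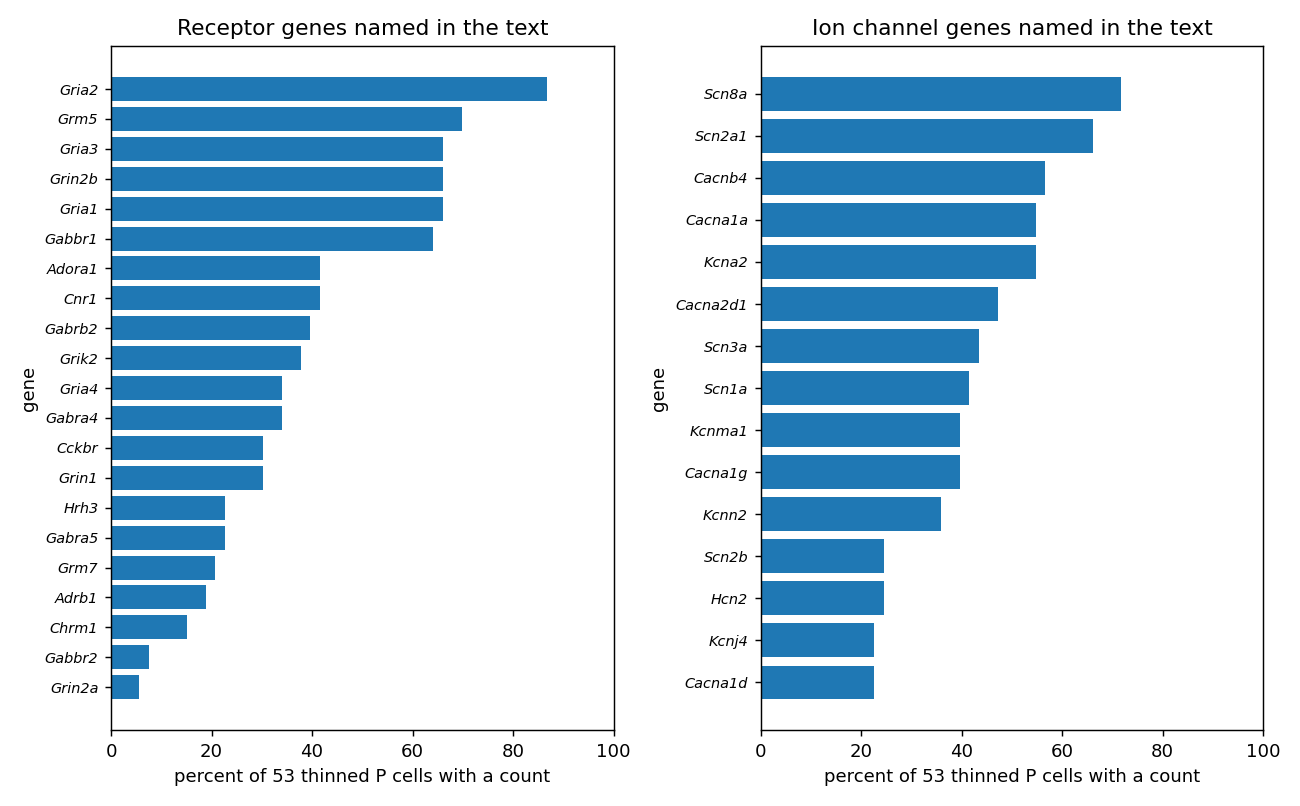
Percent of the 53 thinned P cells with at least 1 count of each receptor gene (left) and ion channel gene (right) named in the text with a count in some thinned cell. Bars are ordered by breadth, and Gria2, with 46 cells, leads the receptors and Scn8a, with 38, the channels.

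Co-detection was read against its background. Over 65 genes of the marker, receptor and channel lists found in 20% to 80% of cells there are 2080 pairs. Genes within each of these pairs were taken in alphabetical order. The share of cells with the second gene was higher in cells with the first than in cells without it by a median of 15.7 percentage points (10th percentile -4.21, 90th percentile 35.7), and 85% of differences were above 0. Within the 27 cells with at least the median number of genes, called gene-rich here, the median was 7.65 points, and within the 26 with fewer genes it was 6.67 points. A pair near these values does not stand apart from any other pair.

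Most pairs of the 5 markers lay above the background median. Of the 10 pairs, 8 had a difference above 15.7 points and 2 were above the 90th percentile. Arpp21, found in 81.1% of cells, is itself outside the range of the background genes. The difference also depends on which gene is put first. With Sv2b first, Slc17a7 was found in 81.5% of cells with Sv2b and in 46.2% of those without, which is below the 90th percentile. Of the 34 cells with Slc17a7, 94.1% (interval 80.3% to 99.3%) also had Arpp21, against 57.9% (33.5% to 79.7%) of the 19 without it. Sv2b was found in 64.7% (46.5% to 80.3%) of cells with Slc17a7 and in 26.3% (9.1% to 51.2%) of those without. Neurod6 was found in 44.1% (27.2% to 62.1%) and 10.5% (1.3% to 33.1%), and 15 of the 17 cells with Neurod6 had Slc17a7. The 3 differences, 36.2, 38.4 and 33.6 points, were near or above the 90th percentile of all pairs. Among the 27 gene-rich cells 24 had Slc17a7, which leaves 3 without it for comparison. Among the 26 gene-poor cells, Arpp21 was found in 80% of the 10 with Slc17a7 and in 56.2% of the 16 without, and Sv2b in 40% and 25%. For Neurod6 the gene-poor shares were 10% and 6.25%, 1 cell each, a difference below the 6.67 points of all pairs there. The pair of Baiap2 and Neurod6 turned with depth. At equal depth Neurod6 was found in 31.4% of cells with Baiap2 and in 33.3% of those without, and at full depth in 47.8% and 7.69%.

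Excitatory and inhibitory markers were not exclusive at the level of 1 count. Gad1 was found in 23.5% (10.7% to 41.2%) of the cells with Slc17a7 and in 31.6% (12.6% to 56.6%) of those without. At full depth the direction turned, with 50% (33.8% to 66.2%) of the 40 cells with Slc17a7 and 36.8% (16.3% to 61.6%) of the others. At equal depth both genes were found in 8 cells, 7 without the cells that had more GABAergic markers, and all 8 were gene-rich. Gad1 reached 100 CPM in 3 cells, P67, P42 and P22, and stayed under 10 CPM in 19 of the 27 in which it was found at full depth.

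Several subunits that work together were found together. Gria3 was found in 76.1% of cells with Gria2 and in 0 of the 7 without it. Camk2b was found in 93.1% (77.2% to 99.2%) of cells with Camk2a and in 50% (29.1% to 70.9%) of the others. Scn8a was found in 85.7% of cells with Scn2a1 against 44.4%, and Cacnb4 in 75.9% of cells with Cacna1a against 33.3%. Over all 53 cells, the last 3 differences, 43.1, 41.3 and 42.5 points, exceeded the 90th percentile of all pairs, although Camk2b is not one of the background genes. Among gene-rich cells, Camk2b was found in 100% and 80%, Scn8a in 95.7% and 75%, and Cacnb4 in 76.2% and 50%. Only 10, 4 and 6 gene-rich cells lacked the first gene. Among gene-poor cells these shares were 83.3% and 28.6%, 66.7% and 35.7%, and 75% and 27.8%. The 90th percentile of all pairs was 34.1 points within gene-rich and 44.9 within gene-poor cells. All 7 cells without Gria2 were gene-poor.

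For the NMDA receptor pair the difference depended on depth. Grin2b was found in 68.8% of cells with Grin1 and 64.9% of those without at equal depth, and in 83.3% (67.2% to 93.6%) and 56.5% (34.5% to 76.8%) at full depth.

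Among all 2080 pairs, the ones with the highest and lowest agreement were picked out after their values were seen. The GABA-A subunit Gabrb2 and the potassium channel Kcnma1, each found in 21 cells, shared 17 of them. At the other end, the calcium channel Cacna1d (12 cells) and the sodium channel subunit Scn2b (13 cells) shared 0, and Hcn2 shared 5 of its 13 cells with Slc17a7.

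**Figure D5:**
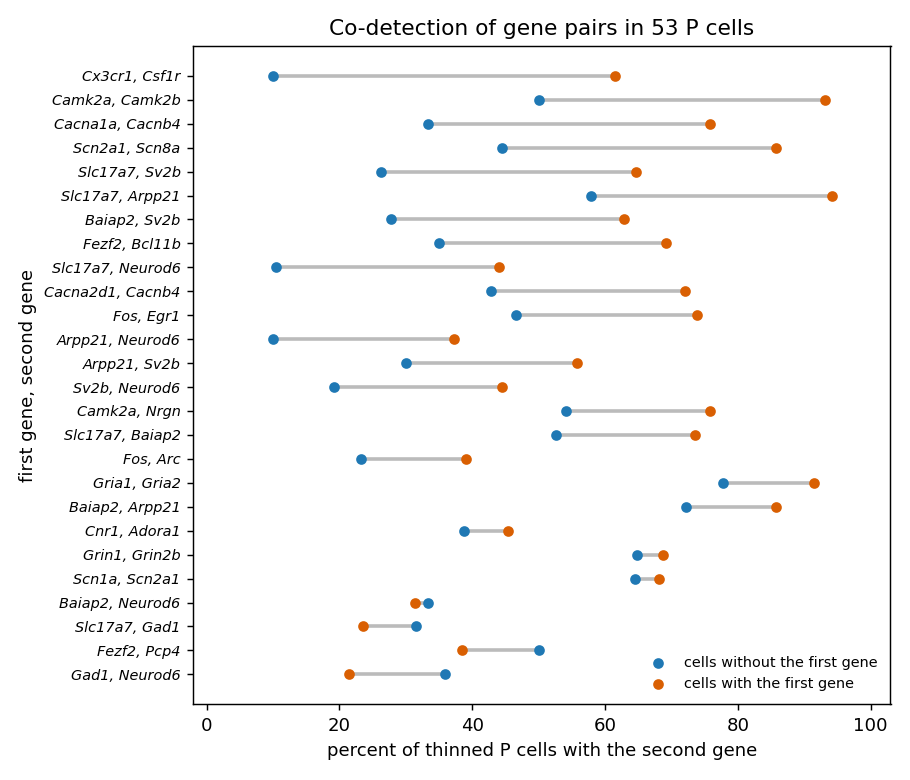
Share of thinned P cells with the second gene of a pair, among cells with (orange) and without (blue) the first gene, for the 26 fixed pairs of genes named in the text with at least 10 cells with and 10 without the first gene and 10 with the second. Camk2a with Camk2b and Cacna1a with Cacnb4 lie 43.1 and 42.5 points apart, while the points of Baiap2 with Neurod6 nearly meet.

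Genes known from cortical layers were found in mixtures. At the mark of 25% of cells, which 12.9% of all genes passed, were 6 of the 18 deep-layer genes, among them Pcp4, a calmodulin-binding peptide (25 of 53 cells), Bcl11b, the factor CTIP2 of subcortically projecting cells (23 cells), and Crym (21 cells). Of the 11 upper-layer genes only Lmo4, a LIM-domain protein, passed that mark, in 41 cells. Cux1 and Cux2, homeobox factors of upper layers, were found in 5 cells each. At least 1 deep-layer and 1 upper-layer gene were found in 45 cells, and in 31 when Lmo4 was not counted. Having 1 count of any of 18 and of any of 11 genes cannot show whether these genes sort the cells into 2 sets.

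Fezf2, a factor that specifies subcortical projection neurons, was found in 13 of 53 cells and reached 1987 CPM in P20, 1209 CPM in P55 and 1048 CPM in P66. Bcl11b was found in 69.2% (38.6% to 90.9%) of cells with Fezf2 and in 35% (20.6% to 51.7%) of those without. At full depth these shares were 65.2% and 55.6%. Fezf2 and Cux2 were found together in no cell at equal depth and in 6 of 59 at full depth. All 9 cells with both Fezf2 and Bcl11b were gene-rich. Fezf2 was found in 1 of the 6 cells of bcl2fastq 1.8.4 and in 22 of the 53 of bcl2fastq2.

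Genes of other cell types were present at varied levels. Of 20 GABAergic genes only Gad1 was found in 25% of cells (14 of 53), a mark that 12.9% of all genes passed. No GABAergic gene was found in 29 cells, and the summed level had a median of 4.76 CPM (3.88 CPM without P3, P57 and P67) and a maximum of 9738 CPM, in P67. The defining interneuron genes Pvalb and Sst were found in 5 of 59 cells each and Vip in 4.

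Astrocytic genes were found to unequal extents. Slc1a2 was found in 40 of 53 cells, and the 14 genes summed to a median of 3069 CPM per cell and at most 106187 CPM, in P56. The astrocyte-defining genes were rare, with Gfap and Aqp4 in 3 of 53 cells each and Aldh1l1 in 0. At least 5 astrocytic members were found in each of 17 cells.

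Each single microglial or oligodendrocyte gene was found in a minority of cells. At equal depth, however, 34 of 53 cells had at least 1 microglial gene and 37 had at least 1 oligodendrocyte gene. The complement gene C1qc and the adaptor gene Tyrobp were found in 14 of 53 cells each and Cx3cr1 in 13. All 14 microglial members were found in P2 and 13 in P32, which had the highest sum, 22791 CPM, against a median of 10.3 CPM over the 59 cells. The microglial genes were found together: Csf1r was found in 61.5% (31.6% to 86.1%) of cells with Cx3cr1 and in 10% (2.8% to 23.7%) of those without. Mbp, of myelin, was found in 22 cells, and the oligodendrocyte genes summed to a median of 12.4 CPM and at most 12420 CPM, in P21. No vascular gene was found in 41 of 53 cells. What part these genes had in the marker, receptor and channel values above was not tested.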

How the data were processed

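The authors deposited 1 table of whole-number read counts per gene symbol and cell, with 19685 genes, of which 18766 had a count in a P cell, and no mitochondrially encoded gene. Per the submitters' processing notes, the tools were bcl2fastq (1.8.4 for 6 P cells, 2.17 for 53) and the aligner STAR 2.4.0, and the genome build was mm10. How reads were counted (tool, annotation, strand, filters) is not given in the sources used here. Counts of overlapping genes or close copies are therefore uncertain. No duplicate library was seen among the P cells: the highest correlation between 2 libraries was 0.457.

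Counts were divided by the cell total to give CPM, with no other normalization. For shares of cells and for the CV, libraries were thinned without replacement to the 10th percentile of the totals, 139788 counts. The CV from counting is that of Poisson counts at the mean. Python 3.11.15, numpy 2.4.6, pandas 2.3.3 and scipy 1.17.1 were used, and the steps were tested on simulated data. Depth sets the precision: 6 libraries had under 100000 counts.

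The named genes were the 20 found in the most thinned P cells, the 10 lowest and 10 highest CVs among genes found in at least 50% of them, the 5 given markers, up to 3 members of each of 29 gene lists, and the genes of 57 fixed pairs. Predicted genes, Rik clones and Rn45s were not ranked. Some genes that the rule names are not reported here, and they keep their ranks. Other genes named with their values, among them further list members, were chosen after their values were seen. Of 373 listed symbols, 366 were in the table. Members and lists were chosen with earlier results of these data known. The alternatives were no thinning or another depth or draw, a limit of 5 counts, totals without Rn45s or without the 20 genes with the highest counts, each bcl2fastq version alone, markers at 1 count, leaving out the 3 cells with more GABAergic markers, leaving out libraries under 100000 counts and, chosen after the data were seen, leaving out libraries with over 20% Rn45s. Fast-spiking cells were not used.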

Additional observations from a re-analysis of the deposited data

How the results depend on the processing

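Depth, the detection limit and the cells of bcl2fastq 1.8.4 alone moved the numbers. Without thinning the median cell had 3488 genes in place of 1790, 1495 genes in place of 525 were found in at least 50% of cells, the median CV was 2.94 in place of 2.19, and the median fixed pair was found together in 28.8% of cells in place of 15.1%. At the 25th percentile of the totals the median cell had 2865.5 genes, and 1420 genes were found in at least 50% of cells. With at least 5 counts required, 184 genes were. In the 6 cells of bcl2fastq 1.8.4 alone, thinned in a separate random draw from the 3546 of the report, the median was 3527.5 genes and 4.5 of the 5 markers, 3333 genes were found in at least 50% of cells, and the median pair was found in 33.3%. The share of cells with more glutamatergic markers was 86.4% and ran from 83.1%, with markers at 1 count, to 90.6%, without libraries under 100000 counts. Of 55 fixed pairs with a difference at both depths, 11 had the opposite direction without thinning, among them Slc17a7 with Gad1 (13.2 in place of -8.05 percentage points), Baiap2 with Neurod6 (40.1 in place of -1.90) and Fezf2 with Cux2 (6.64 in place of -12.5). Of single genes and pairs, 34 moved by more than their interval without thinning, 42 in the cells of bcl2fastq 1.8.4 alone, 29 at the 25th percentile and 26 at 5 counts, against 0 to 4 under each other setting. No paired analysis was possible because only P cells were described and the numbers in the titles only name cells. Genes under 7.15 CPM were mostly below 1 count at equal depth, so that a gene not found there may still be expressed.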

Other observations

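Immediate early genes, which neurons switch on within minutes of activity, were found in most P cells but in varied number. Egr1 was found in 31 of 53 cells at equal depth, with a median of 7.16 CPM, 22 cells at 100 CPM or more and a highest value of 18108 CPM, in P41. Fos was found in 23 cells, Junb in 21, Jun in 20 and Arc in 16. At least 5 of the 18 genes were found in 23 cells, at least 10 in 5 cells, none in 4, and 14 in P33. Egr1 was found in 73.9% (interval 51.6% to 89.8%) of cells with Fos and in 46.7% (28.3% to 65.7%) of those without, a difference of 27.2 percentage points against a median of 15.7 for the 2080 pairs of marker, receptor and channel genes.

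Genes of the Y chromosome and the X-inactivation RNA Xist were also read, since the labels give no sex. At 10 CPM or more, 26 of 59 cells had a Y-linked gene without Xist, 1 cell, P16 with 397 CPM of Xist, had Xist without a Y-linked gene, 0 had both and 32 had neither. At 1 count, 16 cells had both. Eif2s3y was found in 27 cells and reached 10655 CPM in P59.

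Some genes were found in nearly every P cell at full depth but at a low level. Of 72 genes found in at least 50 of the 59 cells, 15 had a median under 10 CPM. Slx1b, a nuclease subunit, was found in 58 cells with a median of 8.65 CPM, Xpo7, a nuclear transport receptor, in 57 with 6.94 CPM, and Hoxb1, a homeobox gene of the embryonic hindbrain, in 55 with 1.47 CPM. At equal depth Hoxb1 was found in 15 of 53 cells. Hoxb1 had under 10 CPM in 43 of its 55 cells and 218 CPM at most.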
